A study of Mus musculus with 12 samples.

Results

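Genes of the antiviral response were followed in PGCLCs, primordial germ cell-like cells, which are derived in culture from mouse embryonic stem cells as a model of the founders of the germ line. The set holds 39 genes, of the 35975 in the files, chosen by name as nucleic acid sensors, interferon-stimulated genes and genes of MHC class I antigen presentation. By role they are 10 sensors and adapters, 5 transcription factors, 16 interferon-stimulated effectors and 8 genes of MHC class I and peptide loading. A filter on low counts left 32 of the 39 among 16178 genes tested. The 7 that did not pass are Ifih1 and Tlr3 (sensors) and Isg15, Ifit1, Ifit3, Usp18 and Rtp4 (effectors). The 39 genes were chosen with earlier results of these data known. Shares of calls set beside those of all genes therefore describe the set and do not test it.

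Cells sense viral nucleic acid with receptors in the cytosol and in endosomes. RIG-I (encoded by Ddx58) and MDA5 (Ifih1) bind double-stranded RNA and signal through Mavs, and cGAS (Mb21d1, listed under the newer symbol Cgas in the annotation) binds DNA and signals through STING (Tmem173). Signalling activates Irf3 and Irf7 and so the interferon genes. Secreted interferon then acts through its receptor and factors that include Stat2 and Irf9 on the interferon-stimulated genes, which include effectors such as Isg15 and the MHC class I genes. Embryonic stem cells are known to make little interferon. Loss of DNA methylation is known in some somatic and cancer cells to release endogenous retroviruses whose RNA can start the same response, and the comparisons ask whether loss of the methyltransferases goes with such a response here.

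The 12 libraries come from E14TG2a, a mouse embryonic stem cell line grown in 2i medium with vitamin C, in 4 groups of 3 biological replicates. In the line labelled TKO the DNA methyltransferase genes Dnmt1, Dnmt3a and Dnmt3b are knocked out, as is known of the study. It was primed toward epiblast-like cells for 40, 48 or 96 h (TKO_40h, TKO_48h and TKO_96h), and the wild type for 40 h (WT_40h). Germ cell fate was then induced in all groups over 4 days in aggregates, with the cytokines BMP4 and BMP8, stem cell factor, EGF and LIF. The titles name no separate clones, so other differences between the TKO and WT lines cannot be told apart from the knockouts. WT was sequenced at 40 h only, so genotype and priming time cannot be told apart in TKO_48h or TKO_96h against WT_40h. Whether the RNA is of sorted cells or of whole aggregates is not in the labels, nor is whether replicates were separate cultures, so p-values measure the spread between these libraries. In bulk RNA, fewer cells of a type and less RNA per cell cannot be told apart.

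The promoters of 5 of the genes are shown, with any match to the elements through which interferon acts. Sequences are from RefSeq (GRCm38.p6), from 250 bases before to 50 after the annotated start, on the strand of the gene, 5′ to 3′. Capitals mark matches, on either strand, to the interferon-stimulated response element (ISRE, searched as GAAA, 2 free bases and GAAA) or the gamma activated site (GAS, searched as TTC, 3 free bases and GAA), and matches that overlap run together. Isg15 (chr4:156200769-156201068, minus strand), which encodes a ubiquitin-like modifier, is shown as a classical target with 3 overlapping ISRE matches. Bst2 (chr8:71537423-71537722, minus strand), which encodes tetherin, a protein that holds budding virions on the cell, has 2 ISRE matches and a GAS match. Irf1 (chr11:53769764-53770063, plus strand), a transcription factor induced by interferon, has a GAS match. H2-K1 (chr17:34000284-34000583, minus strand) and H2-D1 (chr17:35262844-35263143, plus strand), heavy chains of MHC class I, have no exact match to either motif in these letters. The search allowed no mismatch, so a window without a match may still hold a variant of the element.
Isg15: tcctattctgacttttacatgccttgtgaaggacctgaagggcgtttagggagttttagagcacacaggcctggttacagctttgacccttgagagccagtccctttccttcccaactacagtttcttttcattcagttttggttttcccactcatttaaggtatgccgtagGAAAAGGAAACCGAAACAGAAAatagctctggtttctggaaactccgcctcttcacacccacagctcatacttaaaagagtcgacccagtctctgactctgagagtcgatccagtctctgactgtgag
Bst2: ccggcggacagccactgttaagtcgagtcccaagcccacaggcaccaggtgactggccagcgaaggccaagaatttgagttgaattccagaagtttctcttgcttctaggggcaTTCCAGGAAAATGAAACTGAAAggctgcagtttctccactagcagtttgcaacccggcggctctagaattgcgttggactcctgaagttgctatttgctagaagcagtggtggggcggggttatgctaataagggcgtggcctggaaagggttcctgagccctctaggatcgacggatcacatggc
Irf1: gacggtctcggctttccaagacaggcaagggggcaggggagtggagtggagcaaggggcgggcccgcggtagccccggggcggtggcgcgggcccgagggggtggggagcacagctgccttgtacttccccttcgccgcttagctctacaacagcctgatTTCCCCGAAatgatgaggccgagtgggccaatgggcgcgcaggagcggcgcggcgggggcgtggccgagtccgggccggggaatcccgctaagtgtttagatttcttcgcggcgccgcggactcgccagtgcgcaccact
H2-K1: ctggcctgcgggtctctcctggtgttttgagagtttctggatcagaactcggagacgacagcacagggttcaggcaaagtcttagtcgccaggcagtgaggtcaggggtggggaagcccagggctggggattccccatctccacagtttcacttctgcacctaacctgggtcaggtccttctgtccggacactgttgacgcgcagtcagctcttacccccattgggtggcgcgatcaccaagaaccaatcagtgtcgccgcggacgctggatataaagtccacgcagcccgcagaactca
H2-D1: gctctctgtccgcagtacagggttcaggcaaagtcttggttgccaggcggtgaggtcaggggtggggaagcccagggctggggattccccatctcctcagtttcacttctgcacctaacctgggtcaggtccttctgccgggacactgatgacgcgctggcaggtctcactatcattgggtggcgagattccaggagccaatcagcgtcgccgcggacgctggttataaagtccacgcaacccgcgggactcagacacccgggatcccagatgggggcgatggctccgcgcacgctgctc

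The H2-K1 and H2-D1 windows share an identical run of 47 bases. RefSeq gave such a window for 30 of the 39 genes, but none for Dhx58, Zbp1, Tmem173, Mx1, Usp18, Rtp4, Parp14, H2-Bl and Nlrc5. An ISRE match lies in 12 of the 30 genes and a GAS match in 9, in any of their 38 windows, while 3.99% of all 27025 genes with a window hold an ISRE match in any of theirs and 9.55% a GAS match. The ISRE matches are in Ifih1, Ddx58, Eif2ak2, Stat2, Isg15, Ifit1, Ifit3, Rsad2, Bst2, Oas1a, B2m and H2-T23. Of the 11 genes called below, Eif2ak2, Stat2 and Bst2 hold an ISRE match. Mb21d1, Irf1, Trim25, H2-K1, H2-D1, Tap1 and Tapbp hold no exact ISRE match, though Irf1 holds a GAS match. Variants of either element were not searched. The windows of Isg15, Bst2, H2-K1, H2-D1 and Irf1 hold 6, 11, 15, 19 and 32 CG dinucleotides, the bases that DNA methyltransferases act on, beside a median of 7 over all windows (quartiles 3 and 20).

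The libraries held 6570180 to 9114128 estimated counts. The targeted genes were lower in each TKO group, yet still counted: Dnmt1 was at 115 to 130 CPM (counts per library, scaled by library size) in TKO_40h, 64.9 to 121 CPM in TKO_48h and 132 to 152 CPM in TKO_96h, against 426 to 450 CPM in WT_40h. Dnmt3a and Dnmt3b were lower as well (log2 fold changes between -1.95 and -3.52, each adjusted p at most 9.9e-07). TKO_48h replicate 1 stood apart on the second principal component (-73.3, with -21.9 the next lowest), and the first (23.2% of the variance) separated TKO_96h from the others. Of 12 germ cell markers all were tested, and their summed level was 1360 to 1430 CPM in TKO_40h, 1440 to 1730 in TKO_48h, 1600 to 1780 in TKO_96h and 1320 to 1410 CPM in WT_40h. Most of that sum was Pou5f1, Sox2, Nanog and Utf1 (794, 285, 261 and 158 CPM in TKO_96h), so it says little of the other markers. In TKO_96h against WT_40h 3 of the 12 were called, Pou5f1 higher and Prdm1 and Tfap2c lower. Of 12 leukocyte markers 5 were tested and 0 were called in any comparison by edgeR or DESeq2, with 0 at an unadjusted p below 0.05 (edgeR). Lyz2 and Tyrobp were at 0 in all 12 libraries, and the sum was 17.9 to 23.4, 17.4 to 23 and 19.1 to 21.9 CPM in the 3 TKO groups in order of priming, against 23 to 27.1 CPM in WT_40h.

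The levels of the 39 genes covered a wide range, and the effectors stood at both ends of it. Per length, as mean TPM over the 12 libraries, 14 of the 39 genes lay below 1 TPM and 7 at 10 TPM or more. The highest were Trim25 (35.4 TPM), an E3 ligase that acts on RIG-I, H2-K1 (23.5 TPM), Samhd1 (21.9 TPM), which breaks down dNTPs, and Irf1 (20.9 TPM). Bst2 (12.1 TPM), Irf3 (11.3 TPM) and Adar (10.8 TPM), which edits double-stranded RNA, followed. Ddx58 was at 9.28 TPM, Stat2 at 9.22 TPM and H2-D1 at 9.0 TPM, so that these neighbours in the order lay close together. B2m, the light chain that every class I molecule needs, was at 3.86 TPM. Isg15 was at 0.343 TPM, Ifit1 at 0.211 TPM and Ifit3 at 0.0313 TPM.

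**Figure D1:**
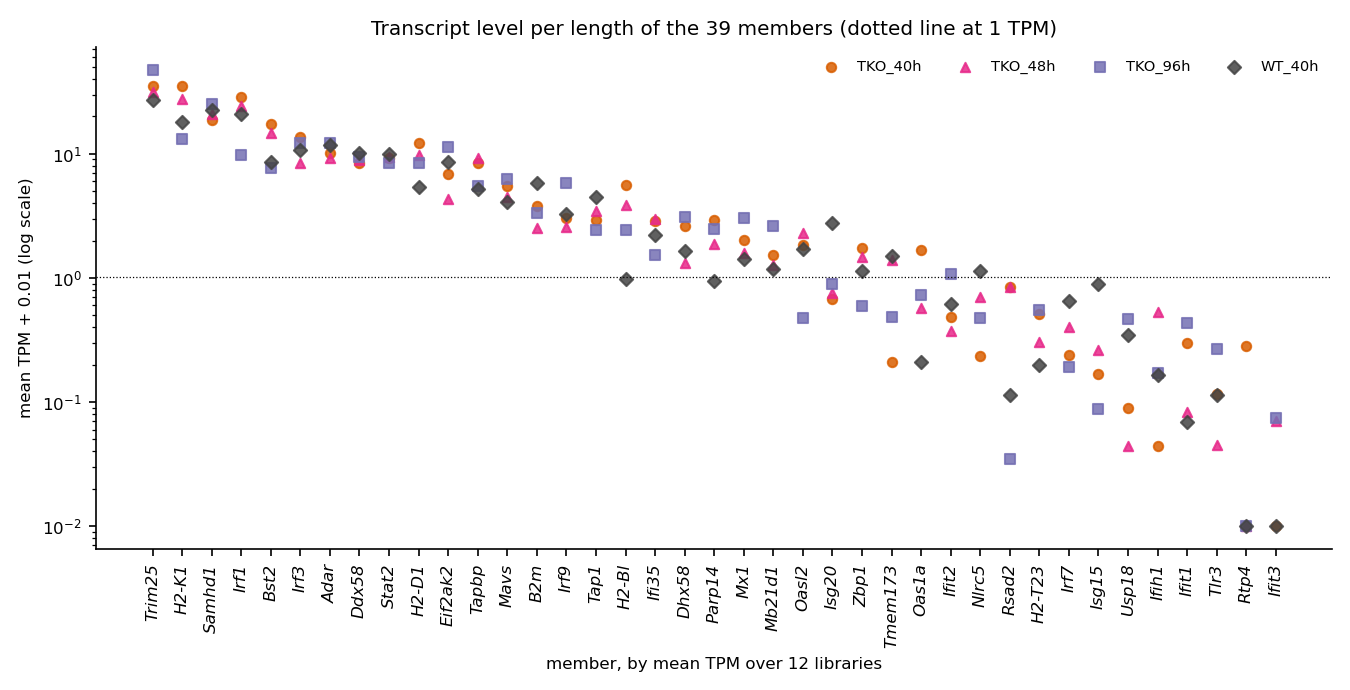
Mean TPM (log axis, with 0.01 added) of the 39 genes in TKO_40h, TKO_48h, TKO_96h and WT_40h, ordered by the mean over 12 libraries. Each point is the mean of 3 libraries; Trim25 leads at 35.4 TPM and 14 genes lie below the dotted line at 1 TPM.

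The 7 genes that did not pass the filter had 5 to 77 counts in all 12 libraries together, and none was above 2.64 CPM in any library. Isg15 was at 0.138, 0 and 0.233 CPM in TKO_40h, at 0.172, 0.535 and 0 in TKO_48h and at 0.151, 0 and 0 in TKO_96h, against 0, 0.534 and 1.8 CPM in WT_40h. Its highest value was thus in a WT library, where it rests on 13 counts. Ifit1, an effector that binds viral RNA, was at 0.829, 1.33 and 1.28 CPM in TKO_40h, at 0.172, 0.401 and 0.426 in TKO_48h and at 1.06, 1.4 and 2.64 in TKO_96h, against 0.445, 0 and 0.276 CPM in WT_40h. These values are 0 to 20 counts a library, and the gene was not tested.

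Transcripts of the interferons themselves were hardly counted. Of 21 interferon genes 0 passed the filter, and 13, Ifnb1 among them, were at 0 in all 12 libraries. A count of 0 in a library allows up to 3 counts, or 0.334 to 0.515 CPM here, counting error only. All 21 together summed to 0.465 to 1.94 CPM in TKO_40h, 1.34 to 3.12 CPM in TKO_48h and 0.14 to 1.66 CPM in TKO_96h, against 0.415 to 1.07 CPM in WT_40h. The ranges of TKO_40h and TKO_96h overlap that of WT_40h, and that of TKO_48h, on 10 to 22 counts a library, lies above it.

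With 40 h of priming, TKO cells had more transcripts of 3 MHC class I heavy chain genes and of Trim25 than WT cells, and fewer of the peptide transporter gene Tap1. Called here means a Benjamini-Hochberg adjusted p below 0.05 over all 16178 genes in edgeR's quasi-likelihood test, the source of every adjusted p given. Of the 32 genes tested in TKO_40h against WT_40h, 5 were called (15.6%), 4 higher and 1 lower, while 3.1% of all genes tested were called (1.62% higher and 1.48% lower). The calls were 4 of 8 MHC genes, 1 of 11 effectors, 0 of 8 sensors and 0 of 5 factors. DESeq2 called 4 of 8 MHC genes, 2 of 11 effectors and likewise 0 sensors and factors. The median log2 fold change of the 32 was 0.26, beside 0 for all genes tested. As the genes were chosen with earlier results of these data known, these shares and medians are no test of the set.

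H2-K1 (GRCm38 chromosome 17, 33996017 to 34000347) was at 42, 54.9 and 56.1 CPM in TKO_40h, against 24.9, 33.2 and 31.1 CPM in WT_40h. The groups did not overlap, and the log2 fold change was 0.78 ± 0.20 (SE, n = 3 each; adjusted p = 0.042). H2-D1 (chromosome 17, 35262730 to 35267499), the other classical heavy chain here, was at 23.9, 31.2 and 35.3 CPM in TKO_40h, against 15, 18.8 and 13.5 CPM in WT_40h. Each TKO_40h library was above each WT_40h library (0.93 ± 0.22, adjusted p = 0.022). H2-Bl (chromosome 17, 36080115 to 36084223), a heavy chain gene annotated as a polymorphic pseudogene, was at 6.22, 5.58 and 8.38 CPM in TKO_40h, against 0.556, 1.74 and 1.52 CPM in WT_40h. Its groups did not overlap either (2.41 ± 0.58, adjusted p = 0.027). These genes share sequence: of the 31-base words of its transcripts, 22.8% in H2-K1, 26.7% in H2-D1 and 21.3% in H2-Bl also occur in other genes, so that the quantifier divides reads among them and each value is uncertain. Added together, a sum chosen after the values were seen, H2-K1, H2-D1, H2-T23 and H2-Bl had 73.1, 92.9 and 103 CPM in TKO_40h, against 42.1, 54.2 and 46.4 CPM in WT_40h. The same sum over 17 listed class I heavy chain genes was 154 ± 18.2 CPM in TKO_40h, against 98.4 ± 5.13 CPM in WT_40h (SD, n = 3). The 17 include these 4 (89.7 ± 15.2 and 47.6 ± 6.14 CPM), which make up most of the difference, and H2-M5, called below. The wider sum is thus no separate sign of a general rise.

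Among the genes that serve or load the heavy chains, Tap1 was called, and it was lower. Tap1 (chromosome 17, 34187553 to 34197225), a subunit of the transporter that brings peptides into the endoplasmic reticulum, was at 9.68, 8.11 and 10.6 CPM in TKO_40h, against 25.3, 26.8 and 12 CPM in WT_40h. WT_40h replicate 3 lay near the TKO_40h libraries without overlap (-1.18 ± 0.29, adjusted p = 0.031). The gene overlaps Psmb9, an immunoproteasome subunit on the opposite strand, which was at 0.138 to 0.665 CPM in TKO_40h, against 0.138 to 1.0 CPM in WT_40h. B2m was at 2.76, 5.58 and 4.19 CPM in TKO_40h, against 10.2, 5.47 and 4.15 CPM in WT_40h, and the groups overlapped (-0.67, adjusted p = 0.54). Tapbp, which encodes tapasin, was at 25.3, 25.5 and 19.3 CPM in TKO_40h, against 21.3, 20 and 14.6 CPM in WT_40h (0.32, adjusted p = 0.49), again overlapping. Nlrc5, the transactivator of class I genes, was at 0 to 0.931 CPM in TKO_40h, against 1.0 to 3.2 CPM in WT_40h (adjusted p = 0.33).

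Among effectors, Trim25 (chromosome 11, 88999376 to 89020293) was at 154, 146 and 149 CPM in TKO_40h, against 106, 112 and 98.8 CPM in WT_40h. The gap between the groups was wider than the spread within either (0.51 ± 0.10, adjusted p = 0.011). Bst2 was at 18.2, 18.5 and 14.7 CPM in TKO_40h, against 4.56, 11.2 and 10.2 CPM in WT_40h. It did not overlap but missed the threshold (0.99, adjusted p = 0.11), and was called in 2 of 12 alternatives, no filter on low counts and only the groups compared (adjusted p over the 12 from 0.042 to 0.36). Of the 27 genes not called, Oas1a, which makes the 2-5A activator of RNase L, had the highest log2 fold change (2.86, adjusted p = 0.074), at 4.01, 3.99 and 5.59 CPM in TKO_40h, against 0.111, 1.47 and 0.276 CPM in WT_40h, named after its values were seen. It was called in 4 of 12 alternatives, without WT_40h replicate 2, with no filter on low counts, with only the groups compared and by DESeq2 (adjusted p over the 12 from 0.015 to 0.24). It shares 68.8% of its 31-base words, most with Oas1g, whose own values were 3.59, 4.65 and 2.79 CPM in TKO_40h, against 0.334, 0.667 and 0.691 CPM in WT_40h. Samhd1, with Bst2 the uncalled effector of highest TPM, and Ifi35, the next after them, had values of -0.23 and 0.28 on the log2 scale (adjusted p = 0.57 and 0.87).

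None of the sensors and transcription factors was called at 40 h (edgeR), and 0 and 1 had an unadjusted p below 0.05. Adar and Ddx58, the uncalled sensors of highest TPM, differed by -0.23 and 0.15 on the log2 scale (adjusted p = 0.41 and 0.81), and the 8 sensors tested ran from -1.75 (Tmem173) to 0.91 (Zbp1). Irf3 and Irf9, the factors of highest TPM among those called in no comparison, had 0.25 and -0.20 (adjusted p = 0.71 and 0.82). Stat2 was at 21.3, 23 and 27.3 CPM in TKO_40h, against 37.3, 31.6 and 32.6 CPM in WT_40h, without overlap but short of the threshold (-0.50, adjusted p = 0.14). Irf1 was at 41.1, 54.8 and 43.1 CPM in TKO_40h, against 37.4, 38 and 42.7 CPM in WT_40h, and the groups overlapped (0.23, adjusted p = 0.50).

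Each of the 5 calls at 40 h was lost in some fits without 1 library and with another handling of transcript length. With an offset for effective transcript length none of the 5 was called (adjusted p of 0.47 for Trim25, 0.11 for H2-K1, 0.073 for H2-D1, 0.086 for H2-Bl and 0.48 for Tap1). Over all genes the offset gave 77 calls, against 501 in the main fit. Without any 1 of the 6 libraries the calls over all genes fell to 181 to 217. Losses without a library thus go with a general fall in calls and do not single out that library. H2-K1 and H2-Bl were lost without any 1 of the 6 libraries (adjusted p up to 0.18 and 0.12), Trim25 without WT_40h replicate 3 or TKO_40h replicate 1 (up to 0.069), H2-D1 without WT_40h replicates 1 or 3 or TKO_40h replicates 2 or 3 (up to 0.11), and Tap1 without WT_40h replicates 1 or 2 or any TKO_40h library (up to 0.16).

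**Figure D2:**
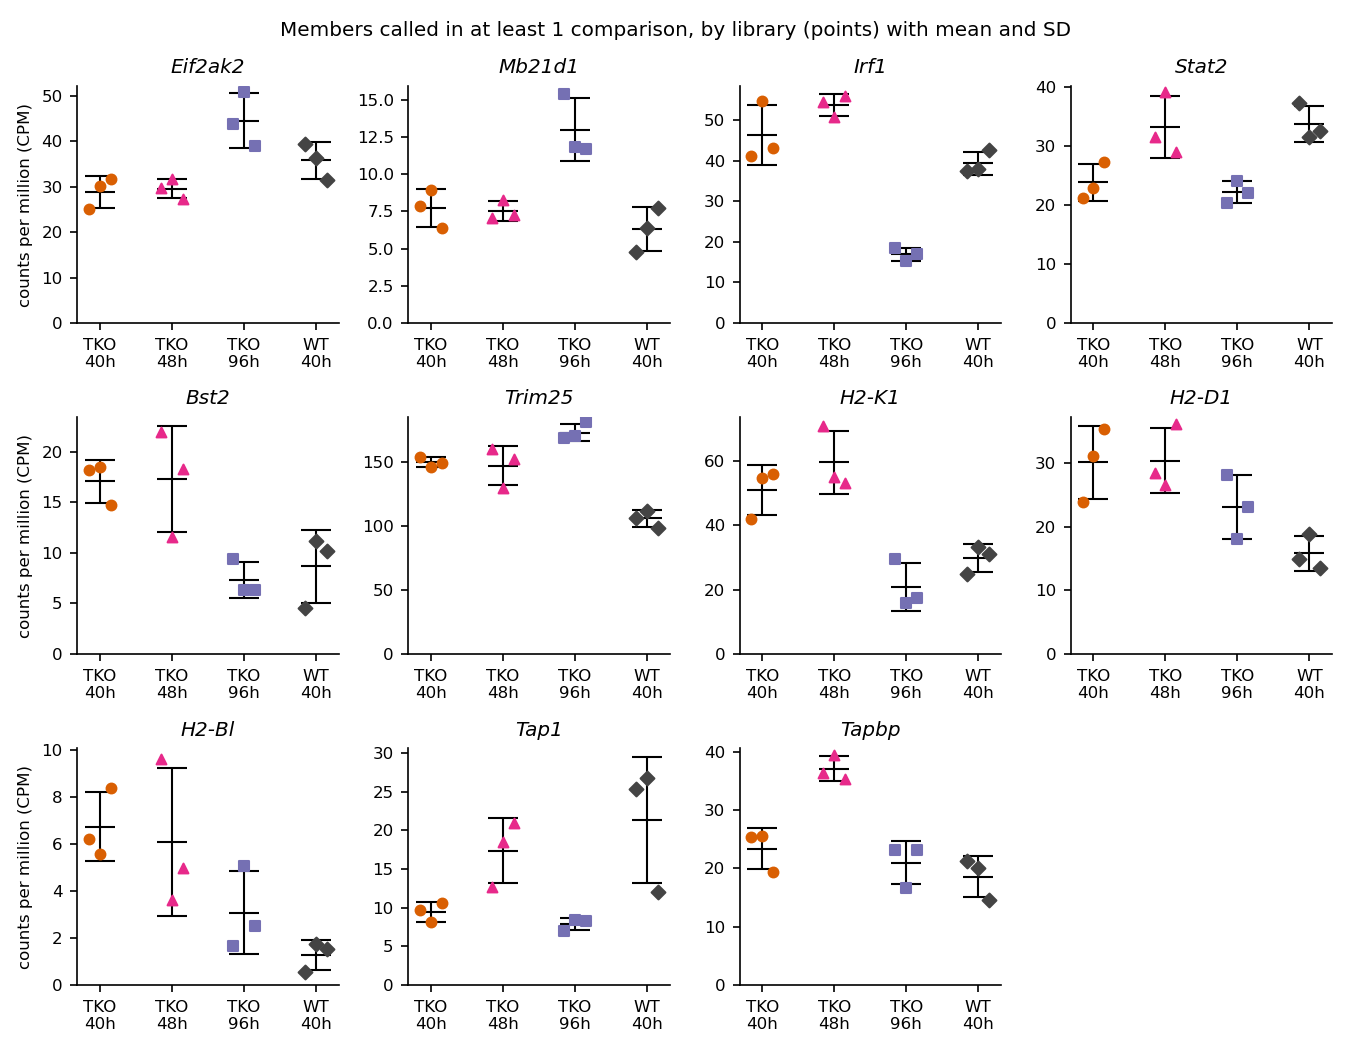
Normalised level in CPM of the 11 genes called in at least 1 comparison, in TKO_40h, TKO_48h, TKO_96h and WT_40h. Points are libraries and bars the mean and SD of 3; H2-K1 lies at 42 to 56.1 CPM in TKO_40h and at 24.9 to 33.2 CPM in WT_40h, and Irf1 at 15.4 to 18.6 CPM in TKO_96h, below each other group.

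In the wider pathway the shares called between TKO_40h and WT_40h were 0% of receptor genes, 5.56% of adapters and 0% of suppressors. The share of all genes tested was 3.1%, and with 14 to 18 genes a list, 0 or 1 call is near it. Of 14 receptor and JAK-STAT genes tested 0 were called by edgeR or DESeq2, with 0 at an unadjusted p below 0.05 (edgeR). Its members of highest TPM were Jak1, at 91.6 ± 4.86 CPM in TKO_40h, against 84.1 ± 13 CPM in WT_40h, and the phosphatase gene Ptpn11, at 112 ± 3.73 CPM in TKO_40h, against 95.4 ± 8.7 CPM in WT_40h (SD, n = 3). Of 18 adapters and kinases tested 1 was called, Traf3, which relays sensor signals to TBK1, at 42.8 ± 1.16 CPM in TKO_40h, against 27.9 ± 5.15 CPM in WT_40h (0.62 ± 0.16, adjusted p = 0.036). Of 14 suppressors of sensing of self nucleic acid 0 were called by edgeR or DESeq2 (2 at an unadjusted p below 0.05 in edgeR). Trim28, a corepressor of retroviral elements, was at 1100 ± 18 CPM in TKO_40h, against 990 ± 24 CPM in WT_40h. Rnaseh2a, a subunit of RNase H2, was at 49.3 ± 8.13 CPM in TKO_40h, against 45.9 ± 2.66 CPM in WT_40h.

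Of 60 other interferon-stimulated genes listed, 48 were tested and 3 called (6.25%, beside 3.1% of all genes; median log2 fold change 0.14). The called genes were Lgals9 and Apobec3, higher in TKO_40h, and Pml, lower. Lgals9, which encodes galectin-9, was at 7.19, 5.85 and 10.9 CPM in TKO_40h, against 2.11, 1.87 and 2.76 CPM in WT_40h (1.83 ± 0.38, adjusted p = 0.012). Apobec3, a cytidine deaminase that restricts retroviruses, was at 127, 120 and 148 CPM in TKO_40h, against 103, 95.7 and 98.2 CPM in WT_40h (0.41 ± 0.11, adjusted p = 0.05, just inside the threshold). Pml, which organises nuclear bodies, was at 225 ± 10 CPM in TKO_40h, against 291 ± 20.2 CPM in WT_40h (-0.37 ± 0.10, adjusted p = 0.049). Of 25 other MHC and loading genes tested 1 was called (4%, a share near that of all genes), the nonclassical class I gene H2-M5, at 27.5, 27.2 and 24 CPM in TKO_40h, against 15.5, 14.6 and 13 CPM in WT_40h (0.87 ± 0.18, adjusted p = 0.013). TKO_40h and WT_40h did not overlap in any of these 4 genes, but they were picked by their calls, so this adds little.

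Markers of other cell types differed between the same groups, where 3.1% of all genes tested were called. The summed level of 12 trophoblast, amnion and mesoderm markers was 77.7 to 79.6 CPM in TKO_40h, against 44.1 to 53.5 CPM in WT_40h. Of 9 tested 1 was called, Hand1 (2.35, adjusted p = 0.0047). Most of the sum in both groups was Eomes, Bmp4, Gata3 and Hand1. Their means were 21.8, 20.2, 13.3 and 10.2 CPM in TKO_40h, against 12.2, 11.0, 7.45 and 2.0 CPM in WT_40h. The log2 fold change was positive in 5 of the 9 and negative in Tfap2b, Krt7, Tbx6 and Msx2. The sum thus shows no general rise of the list. Of 7 endothelial and blood markers tested, Sox18 and Cdh5 were called higher (3.68 and 4.66, adjusted p = 0.013 and 0.046). They had 0 to 8 and 0 to 1 counts a library in WT_40h, so their folds are uncertain. Hbb-bt was at 0 in all libraries, and the sum was 75.2 to 89.6 CPM in TKO_40h, against 70.1 to 90.6 CPM in WT_40h. Most of that sum in every group was Pecam1 (54 to 67 CPM in TKO_40h, 62.2 to 82.8 CPM in WT_40h), so it says little of the other markers of the list. Endoderm markers summed to 105 to 136 CPM in TKO_40h, against 66.2 to 115 CPM in WT_40h, with 0 of 9 called (0 at an unadjusted p below 0.05 in edgeR, 0 by DESeq2). Fibroblast markers summed to 27.9 to 51 CPM in TKO_40h, against 40 to 49.7 CPM in WT_40h, with 0 of 6 called by edgeR (2 at an unadjusted p below 0.05) and 2 by DESeq2. Of the germ cell markers Dppa3 was called higher (1.63) and Kit lower (-0.78). The part of these cell types in the MHC class I values was not tested.

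Longer priming to 48 h moved none of the 32 genes past the threshold. In TKO_48h against TKO_40h 0 of 32 were called (edgeR), while 5.49% of all genes tested were (2.57% higher and 2.92% lower), and 5 of the 32 had an unadjusted p below 0.05. DESeq2 called 1, Tapbp, which was at 36.4, 39.4 and 35.4 CPM in TKO_48h, against 25.3, 25.5 and 19.3 CPM in TKO_40h, without overlap (edgeR 0.67, adjusted p = 0.053). The median log2 fold change was 0.05. H2-K1 was at 70.9, 55 and 53.3 CPM in TKO_48h, against 42, 54.9 and 56.1 CPM in TKO_40h, and Bst2 at 22, 11.6 and 18.3 CPM in TKO_48h, against 18.2, 18.5 and 14.7 CPM in TKO_40h. Both overlapped, and the highest H2-K1 and Bst2 values were in TKO_48h replicate 1, the library that stands apart. Tap1 was at 12.7, 18.5 and 21 CPM in TKO_48h, against 9.68, 8.11 and 10.6 CPM in TKO_40h, without overlap (0.88, adjusted p = 0.086).

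The wider lists had 4 calls between TKO_48h and TKO_40h, 1 of 14 suppressors (Setdb1), 3 of 25 other MHC and loading genes and 0 of 14 receptor genes, 18 adapters and 48 other interferon-stimulated genes (edgeR). The shares of the first 2 lists were 7.14% and 12%, beside 5.49% of all genes tested. Setdb1, an H3K9 methyltransferase that silences retroviral elements, was at 122 ± 15.4 CPM in TKO_48h and 160 ± 11.5 CPM in TKO_40h (-0.38, adjusted p = 0.049). Psme1, a proteasome activator subunit, was at 82.4 ± 6.0 CPM in TKO_48h and 54.7 ± 5.57 CPM in TKO_40h (0.59, adjusted p = 0.018). Rfxap, a subunit of the RFX complex that binds MHC promoters, was also higher (0.90, adjusted p = 0.017), and H2-M5 was lower (-0.66, adjusted p = 0.04). The lists with no call had 0, 5 and 10 genes at an unadjusted p below 0.05, and DESeq2 called 0, 0 and 1 in them. Of 12 germ cell markers 1 was called higher by edgeR, Kit (0.56, adjusted p = 0.031). Of 6 fibroblast markers 1 was called higher, Pdgfrb (2.3, adjusted p = 0.019). In the other marker lists edgeR called 0. DESeq2 called 3 germ cell markers, 1 fibroblast marker and 1 trophoblast, amnion and mesoderm marker. The part of these cell types in the values was not tested.

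After 96 h of priming TKO cells had fewer transcripts of Irf1, Bst2 and H2-K1 than after 40 h, and more of Eif2ak2. In TKO_96h against TKO_40h the calls were 4 of 32 (12.5%), 1 higher and 3 lower, while 12.1% of all genes tested were called (4.94% higher and 7.2% lower), a share like that of the 32. By role they were 1 of 8 sensors, 1 of 5 factors, 1 of 11 effectors and 1 of 8 MHC genes, and the median log2 fold change was -0.08.

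Irf1 (chromosome 11, 53770014 to 53778374) was at 18.6, 15.4 and 17 CPM in TKO_96h, against 41.1, 54.8 and 43.1 CPM in TKO_40h. The groups lay far apart for their spread (-1.45 ± 0.16, adjusted p = 3.6e-06). Bst2 (chromosome 8, 71534255 to 71537456) was at 9.36, 6.3 and 6.33 CPM in TKO_96h, against 18.2, 18.5 and 14.7 CPM in TKO_40h, without overlap (-1.22 ± 0.32, adjusted p = 0.016). H2-K1 was at 29.6, 16 and 17.5 CPM in TKO_96h, against 42, 54.9 and 56.1 CPM in TKO_40h. TKO_96h replicate 1 was the nearest to TKO_40h (-1.28 ± 0.21, adjusted p = 0.00039). Eif2ak2 (chromosome 17, 78852564 to 78882573), which encodes PKR, a kinase that halts translation on double-stranded RNA, was at 43.8, 50.9 and 38.9 CPM in TKO_96h, against 25, 30.2 and 31.7 CPM in TKO_40h. Each TKO_96h library was above each TKO_40h library (0.62 ± 0.16, adjusted p = 0.015).

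H2-D1 did not follow H2-K1 past the threshold, at 28.2, 18.1 and 23.1 CPM in TKO_96h and 23.9, 31.2 and 35.3 CPM in TKO_40h, with overlap (-0.38, adjusted p = 0.27). The difference between the 2 genes was not tested. H2-Bl was at 1.66, 5.04 and 2.51 CPM in TKO_96h and 6.22, 5.58 and 8.38 CPM in TKO_40h (-1.13, adjusted p = 0.19). The 4 heavy chains together had 60.4, 40.7 and 46.2 CPM in TKO_96h, against 73.1, 92.9 and 103 CPM in TKO_40h. Rsad2, which encodes viperin and had the lowest log2 fold change of the 32 (-3.62, adjusted p = 0.057, called by DESeq2 and with only the groups compared), was at 0.151, 0.14 and 0.132 CPM in TKO_96h, against 2.07, 1.73 and 1.98 CPM in TKO_40h, named after its values were seen. Each of those TKO_96h values is 1 count, so its fold is uncertain. Irf9 was not called (0.7, adjusted p = 0.1) but was in 1 of 12 alternatives, without TKO_96h replicate 1 (adjusted p = 0.046). Of the 4 calls, Irf1 and H2-K1 held in all 12 alternatives run. Eif2ak2 was lost without TKO_40h replicate 1 or TKO_96h replicate 2 (adjusted p up to 0.083) and Bst2 without TKO_40h replicates 1 or 2 or TKO_96h replicates 2 or 3 (up to 0.066), and both with the length offset (0.085 and 0.074).

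**Figure D3:**
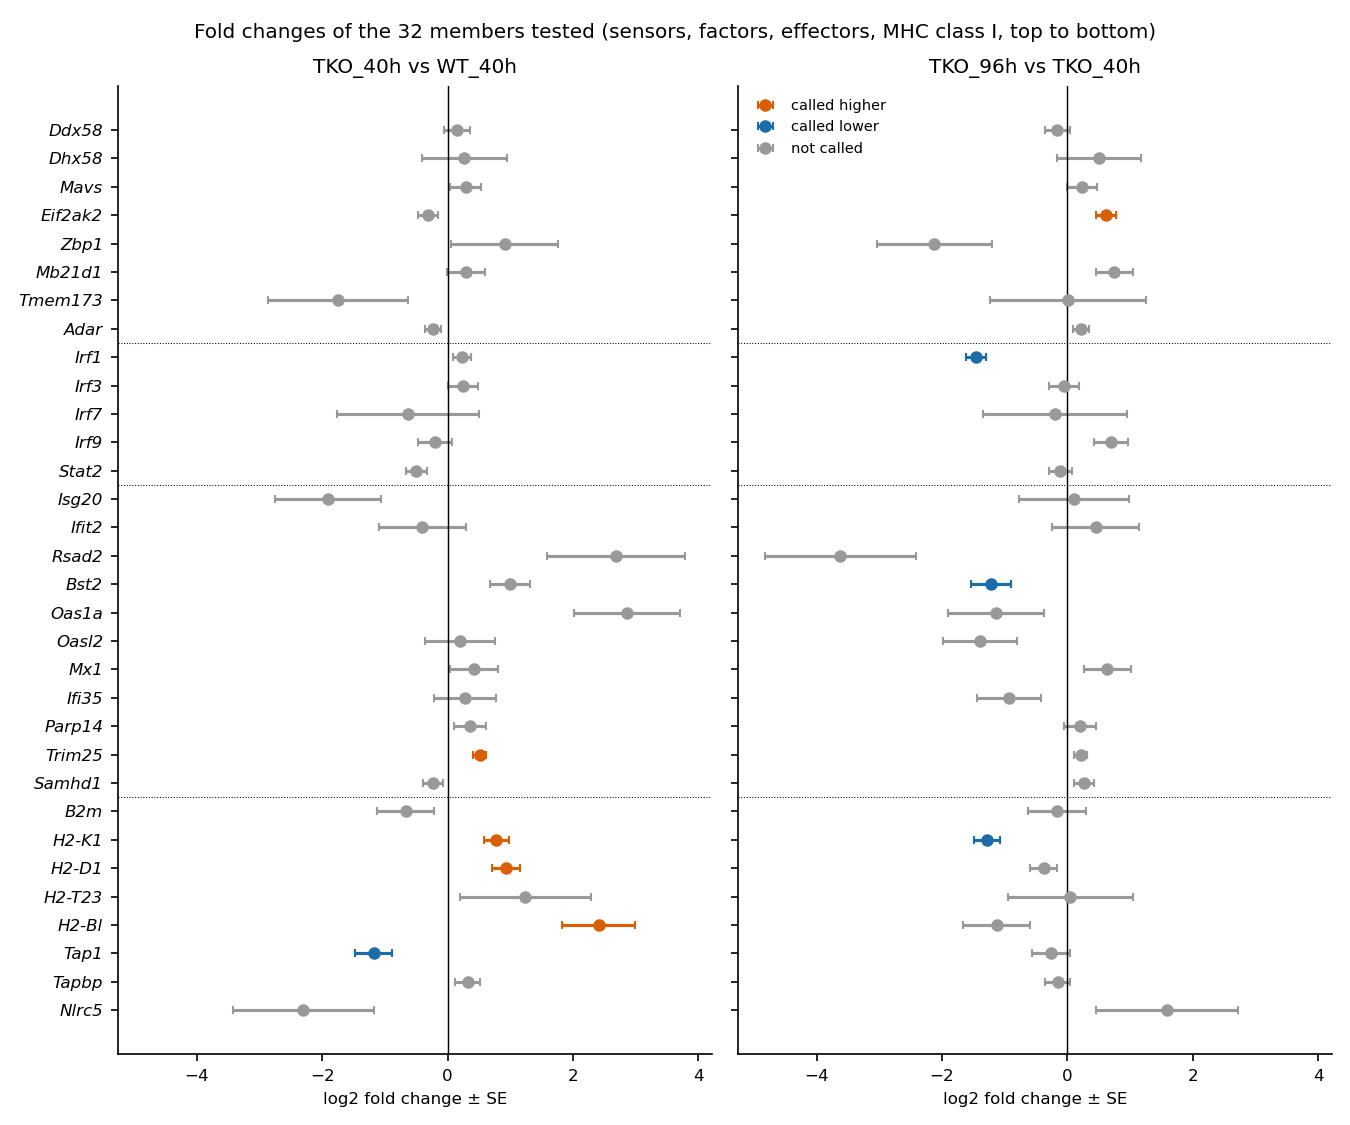
Log2 fold changes with their SE for the 32 genes tested, TKO_40h against WT_40h (left) and TKO_96h against TKO_40h (right), ordered by role from sensors at the top to MHC class I genes at the bottom. Orange points were called higher and blue ones lower; H2-K1 is higher on the left (0.78) and lower on the right (-1.28), and the 2 panels share the TKO_40h libraries.

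Among other interferon-stimulated genes, Tdrd7, Apobec3 and Helz2 fell in TKO_96h and Phf11d rose. Of 48 tested 10 were called (20.8%, beside 12.1% of all genes), 2 higher and 8 lower, with a median log2 fold change of -0.43 beside 0 for all genes. Tdrd7, a Tudor protein also known in germ cells, was at 2.87, 3.08 and 3.43 CPM in TKO_96h, against 12, 11.7 and 8.5 CPM in TKO_40h (-1.77 ± 0.28, adjusted p = 0.00032). Apobec3 was at 80.6, 77.5 and 90.3 CPM in TKO_96h, against 127, 120 and 148 CPM in TKO_40h (-0.67 ± 0.11, adjusted p = 0.00050). Neither gene overlapped between the groups. Helz2, a helicase coactivator, was at 6.12 ± 0.775 CPM in TKO_96h and 17.7 ± 4.21 CPM in TKO_40h (-1.53, adjusted p = 0.00086). Phf11d, a PHD finger gene, was higher, at 49.7 ± 8.79 CPM in TKO_96h and 20.9 ± 2.14 CPM in TKO_40h (1.25, adjusted p = 0.00036).

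Of 25 other antigen presentation genes tested 5 were lower in TKO_96h (20%) and 0 higher, while 7.2% of all genes were lower. The nonclassical class I gene H2-Q7 was at 4.83, 3.5 and 3.56 CPM in TKO_96h, against 13.4, 9.84 and 15.6 CPM in TKO_40h, without overlap (-1.71 ± 0.31, adjusted p = 0.00099). Erap1, which trims peptides for class I, was at 3.23 ± 1.01 CPM in TKO_96h and 9.27 ± 1.73 CPM in TKO_40h (-1.51, adjusted p = 0.016). H2-Ab1, a class II chain, and H2-Q4 were lower too (-2.44 and -1.58, adjusted p = 0.0043 and 0.026). The shares of the next 2 lists were near the 12.1% of all genes called. Of 14 receptor and JAK-STAT genes 2 were lower, Ifngr1, a chain of the interferon gamma receptor, at 10.4 ± 1.84 CPM in TKO_96h and 20.7 ± 4.2 CPM in TKO_40h (-1.0, adjusted p = 0.0075), and Jak2, a kinase of the same receptor (-0.75, adjusted p = 0.044). Of 18 adapters and kinases Ddx60, a helicase that aids RIG-I, was lower (-1.60, adjusted p = 0.0058) and Rela, an NF-kB subunit, higher (0.62, adjusted p = 0.043). Of 14 suppressors 0 were called by edgeR or DESeq2 (2 at an unadjusted p below 0.05 in edgeR).

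Cell type markers moved between TKO_96h and TKO_40h too, where 12.1% of all genes tested were called. Endoderm markers summed to 19.5 to 49.3 CPM in TKO_96h, against 105 to 136 CPM in TKO_40h, with 4 of 9 tested called lower, among them Afp and Apob (-7.50 and -2.80). Afp had 0 counts in each TKO_96h library and 19 to 31 in TKO_40h, so the size of its fold is uncertain. Trophoblast, amnion and mesoderm markers summed to 47.6 to 56.5 CPM in TKO_96h, against 77.7 to 79.6 CPM in TKO_40h, with 3 of 9 called lower (Hand1, Gata3 and Eomes). The sum of the endothelial and blood markers was 86.5 to 96.7 CPM in TKO_96h and 75.2 to 89.6 CPM in TKO_40h, and that of the fibroblast markers 38.2 to 55 CPM in TKO_96h and 27.9 to 51 CPM in TKO_40h. Of these lists 0 genes were called by edgeR or DESeq2 (0 and 1 at an unadjusted p below 0.05 in edgeR). Among germ cell markers Prdm1, Tfap2c and Dppa3 were called lower and Pou5f1 and Sox2 higher. The part of these cell types in the Irf1, Bst2 and H2-K1 values was not tested.

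TKO_48h and TKO_96h were each set against WT_40h, which they share with the comparison at 40 h and with each other. In TKO_48h 5 of 32 genes were called, all higher (15.6%), while 5.66% of all genes tested were called (2.84% higher and 2.82% lower). In TKO_96h 5 were called as well, 2 higher and 3 lower, while 19.2% of all genes tested were (9.1% higher and 10.1% lower). The median log2 fold change of the 32 was 0.32 in TKO_48h and 0.01 in TKO_96h.

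The genes called in TKO_48h were Trim25 and 4 MHC genes. H2-K1 was at 70.9, 55 and 53.3 CPM in TKO_48h, against 24.9, 33.2 and 31.1 CPM in WT_40h (1.01 ± 0.21, adjusted p = 0.0071). Tapbp (chromosome 17, 33915899 to 33929292) was at 36.4, 39.4 and 35.4 CPM in TKO_48h, against 21.3, 20 and 14.6 CPM in WT_40h (0.99 ± 0.20, adjusted p = 0.0063). Neither overlapped, and both held without each library in turn (adjusted p up to 0.043 and 0.042). H2-D1 was at 28.5, 26.5 and 36.1 CPM in TKO_48h, against 15, 18.8 and 13.5 CPM in WT_40h (0.94 ± 0.22, adjusted p = 0.015). H2-Bl was at 9.62, 3.61 and 4.97 CPM in TKO_48h, against 0.556, 1.74 and 1.52 CPM in WT_40h (2.25 ± 0.58, adjusted p = 0.027). Trim25 was at 160, 130 and 152 CPM in TKO_48h, against 106, 112 and 98.8 CPM in WT_40h, again without overlap (0.48 ± 0.10, adjusted p = 0.011). H2-D1 was lost without WT_40h replicates 1 or 3 or TKO_48h replicate 3 (up to 0.076), H2-Bl without any WT_40h library or TKO_48h replicate 1 (up to 0.12) and Trim25 without WT_40h replicate 3 (0.061). All 5 were lost with the length offset (0.05 to 0.13). Bst2 was not called (adjusted p = 0.071) but was in 3 of 12 alternatives, without TKO_48h replicate 2, with no filter and by DESeq2 (adjusted p over the 12 from 0.024 to 0.26).

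In TKO_96h against WT_40h Trim25 was higher, at 169, 170 and 181 CPM in TKO_96h and 106, 112 and 98.8 CPM in WT_40h (0.72 ± 0.10, adjusted p = 8.2e-05). Irf1 was lower, at 18.6, 15.4 and 17 CPM in TKO_96h and 37.4, 38 and 42.7 CPM in WT_40h (-1.21 ± 0.16, adjusted p = 2.3e-05). These 2 calls held in all 12 alternatives, and the libraries lay well apart. Mb21d1 (chromosome 9, 78430526 to 78443237), the DNA sensor, was at 15.4, 11.8 and 11.7 CPM in TKO_96h, against 4.79, 6.41 and 7.74 CPM in WT_40h (1.04 ± 0.30, adjusted p = 0.018). Stat2 (chromosome 10, 128270559 to 128292849) was at 20.4, 24.1 and 22 CPM in TKO_96h, against 37.3, 31.6 and 32.6 CPM in WT_40h (-0.61 ± 0.18, adjusted p = 0.019). Tap1 was at 6.95, 8.4 and 8.31 CPM in TKO_96h, against 25.3, 26.8 and 12 CPM in WT_40h (-1.44 ± 0.29, adjusted p = 0.0017). None of these groups overlapped. Mb21d1 was lost without WT_40h replicates 1 or 2 or TKO_96h replicate 1 (up to 0.085), Stat2 without WT_40h replicate 1 or TKO_96h replicates 1 or 3 (up to 0.092), and Mb21d1, Stat2 and Tap1 with the length offset (0.064, 0.49 and 0.11).

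The heavy chains that were higher in TKO_40h and TKO_48h were not called in TKO_96h against WT_40h. H2-K1 was at 29.6, 16 and 17.5 CPM in TKO_96h and 24.9, 33.2 and 31.1 CPM in WT_40h, with overlap (-0.50, adjusted p = 0.11), and was called lower without TKO_96h replicate 1 (0.0099) and with no filter (0.045). H2-D1 was at 28.2, 18.1 and 23.1 CPM in TKO_96h and 15, 18.8 and 13.5 CPM in WT_40h (0.55, adjusted p = 0.086), and was called higher without TKO_96h replicate 2 (0.047). Mx1, a dynamin-like antiviral GTPase, was at 15.2, 11.9 and 14.5 CPM in TKO_96h and 3.78, 9.34 and 6.91 CPM in WT_40h (1.06, adjusted p = 0.055), and was called in 5 of 12 alternatives (without WT_40h replicate 2, with no filter, with the replicate block, with only the groups compared and by DESeq2; adjusted p over the 12 from 0.025 to 0.21). Oas1a was called in 1 of 12, without WT_40h replicate 2 (0.036). Parp14 (0.57, adjusted p = 0.15) was called higher in 1 of 12, with the length offset (0.041). The 4 heavy chains together had 49.1 ± 10.2 CPM in TKO_96h and 47.6 ± 6.14 CPM in WT_40h, and 97.1 ± 11.5 CPM in TKO_48h (SD, n = 3).

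In the wider lists against WT_40h, TKO_48h had 2 of 48 other interferon-stimulated genes called higher (Lgals9 2.22 and Apobec3 0.43, adjusted p = 0.0020 and 0.029), 1 of 18 adapters (Traf3 0.70, 0.012) and 1 of 25 other MHC genes (Psme1 0.52, 0.034). The shares were 4.17%, 5.56% and 4%, beside 5.66% of all genes. TKO_96h had 15 of 48 other interferon-stimulated genes called (31.2%, beside 19.2% of all genes), 8 higher and 7 lower. The smallest adjusted p were for Pml (-0.66, 0.00013), Tdrd7 (-1.82, 0.00016), Igtp (-3.61, 0.0035) and Gbp2 (-4.01, 0.0071), the last 2 encoding interferon-inducible GTPases. Of the other MHC genes 7 of 25 were called (28%), 2 higher (H2-M5 1.21 and Calr 0.44) and 5 lower, with H2-Ab1 (-3.33, 0.00018) and H2-Q7 (-1.73, 0.00058) among them. Of adapters and kinases 4 of 18 were called (22.2%, near the share of all genes), Traf6 and Ddx60 lower (-0.84 and -1.16) and Ripk1 and Rela higher (0.76 and 0.67). Of 14 suppressors 2 were called (14.3%), Supv3l1 higher (0.66) and Xrn1 lower (-0.60). Of 14 receptor genes 1 was called (7.14%), Ifngr1 lower (-0.99, 0.0056). These last 2 shares were below the 19.2% of all genes.

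Cell type markers differed from WT_40h in these comparisons too, where 5.66% of all genes tested were called in TKO_48h and 19.2% in TKO_96h. In TKO_48h, Hand1 (2.44, adjusted p = 0.0024), Sox18 (4.46, 0.0024), Cdh5 (4.55, 0.036), the fibroblast marker Twist1 (1.35, 0.043) and the germ cell marker Dppa3 (1.5, 0.00035) were called higher on the log2 scale. With 0 to 8 and 0 to 1 counts a library in WT_40h, the folds of Sox18 and Cdh5 are uncertain. The trophoblast, amnion and mesoderm markers summed to 60.8 to 83.4 CPM in TKO_48h, against 44.1 to 53.5 CPM in WT_40h, without overlap. Most of that sum in TKO_48h was Eomes, Bmp4 and Hand1 (means 22.1, 18.4 and 10.9 CPM), so it says little of the other markers. The sums of the endothelial and blood markers were 89.8 to 103 CPM in TKO_48h, against 70.1 to 90.6 CPM in WT_40h, those of the fibroblast markers 44.2 to 88.8 CPM in TKO_48h, against 40 to 49.7 CPM in WT_40h, and those of the endoderm markers 72.4 to 102 CPM in TKO_48h, against 66.2 to 115 CPM in WT_40h. These 3 sums overlapped between the groups.

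In TKO_96h the endoderm markers Afp, Apoa1 and Apob were called lower than in WT_40h (-6.59, -7.08 and -2.84, adjusted p = 0.0031, 0.0016 and 3.6e-05), and the list summed to 19.5 to 49.3 CPM in TKO_96h, against 66.2 to 115 CPM in WT_40h. Afp and Apoa1 had 0 counts in each TKO_96h library and 6 to 18 and 9 to 27 in WT_40h, so the size of their folds is uncertain. Sox18 was called higher (3.10, adjusted p = 0.0089), as was Pou5f1 (0.69, 0.00034), while Prdm1 and Tfap2c were called lower (-1.49 and -0.73, adjusted p = 0.00016 and 0.0051). Of the 9 trophoblast, amnion and mesoderm markers tested 0 were called by edgeR (2 at an unadjusted p below 0.05) and 1 by DESeq2, and of the 6 fibroblast markers likewise 0 (2 at an unadjusted p below 0.05) and 1. The part of these cell types in the MHC class I, Trim25, Irf1, Mb21d1, Stat2 and Tap1 values was not tested.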

How the data were processed

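Total RNA of 12 samples, 3 in each of 4 groups, was made into libraries with a stranded total RNA kit, per the labels' protocols. For each transcript the authors deposited an estimated count (expected count, not scaled to depth) with its effective length, and TPM, scaled by them to length and depth. The submitters' processing notes name Trim Galore 0.6.2, kallisto and the build GRCm38. Not given in the sources used here are the version of kallisto, its strand setting and its transcript set. Further days named in the series' design text are not analysed here.

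Of 119414 transcripts 116728 (97.8%) matched GENCODE M21 by Ensembl ID, and unmatched ones held 2.676 to 4.318% of counts. Counts were summed per gene and rounded. Genes were filtered with filterByExpr (minimum count 10, total 15) and tested with edgeR 4.0.16 (R 4.3.3, TMM, quasi-likelihood, 1 mean per group over all 12 libraries, biological coefficient of variation 0.241), two-sided, with Benjamini-Hochberg adjusted p below 0.05 as a call. SE are the absolute log2 fold change over the square root of F. CPM use TMM library sizes, and TPM, summed per gene, serve only to compare genes. Kallisto divides reads between similar genes by estimation. Libraries carry no molecular identifiers, so limits from 0 counts cover counting error only.

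The genes and lists were chosen with earlier results of these data known. Called genes are given in every library, the others by counts and ranges with the 2 of highest TPM per role, and of each wider list up to 4 called genes per comparison, or the 2 of highest TPM. Genes outside this rule are marked in the text or stand as background, among them Psmb9, B2m, Nlrc5, Oas1g and the 7 untested genes. Mb21d1 was matched to Cgas by its RefSeq synonym. Replicate numbers do not pair the samples: deviations of same-numbered libraries correlated between -0.0608 and 0.0525 over 18 pairs. Before use the fit was tested on simulated data. Alternatives tried were DESeq2 1.42.0, RLE size factors, a fit with no filter, a replicate block, an effective length offset, only the groups compared, and each library left out in turn. A gene withheld for evaluation is not reported here.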

Additional observations from a re-analysis of the deposited data

How the results depend on the processing

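No call reversed its direction under the 18 alternatives, 12 of which apply to each comparison. Of the 19 calls 4 held in all of theirs (Irf1 and H2-K1 in TKO_96h against TKO_40h, Irf1 and Trim25 in TKO_96h against WT_40h), 15 were lost in at least 1, and 11 uncalled pairs of gene and comparison were called in at least 1. Counts below are of the 32 genes, in the order TKO_40h against WT_40h, TKO_48h and TKO_96h against TKO_40h, then TKO_48h and TKO_96h against WT_40h. They were 5, 0, 4, 5 and 5, and with the effective length offset 0, 0, 2, 0 and 3. Without 1 library they ran from 1 to 3, 0 to 0, 2 to 5, 2 to 6 and 3 to 6. For TKO_48h against TKO_40h, no filter on low counts and DESeq2 gave 1 each. With the replicate block they were 5, 0, 4, 5 and 6. The block is no pairing here, since numbers did not go together. Over all genes the length offset gave 77, 203, 826, 239 and 1473 calls, against 501, 888, 1965, 916 and 3099. The offset takes its lengths from estimated transcript abundances; the cause of the loss was not tested. Without 1 library the counts over all genes were 181 to 217, 324 to 1107, 1210 to 1676, 396 to 1540 and 2084 to 2645. In TKO_40h against WT_40h no filter gave 787 and a fit of only the groups compared 1279, which gave 586 in TKO_48h against WT_40h. Of the 39 genes 14 lay below 1 TPM, and the 7 that were not tested are among them. How large a difference could be detected in the rest of the 14 was not measured. The absence of a call there does not show that a gene was unchanged.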

Other observations

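Transcripts of Adar start at separate annotated sites. Adar-202, with the upstream start (GRCm38 chromosome 3, 89715022), was estimated at 17.4, 24.3 and 31.8 CPM in TKO_40h, 25, 25.2 and 23.1 in TKO_48h and 22, 23.6 and 17.1 in TKO_96h, against 24.8, 31 and 28.3 CPM in WT_40h. Adar-201, with a downstream start (89730748), was at 28, 27.4 and 17.2 CPM in TKO_40h, 29.4, 32.2 and 20.8 in TKO_48h and 26.6, 31.1 and 38.2 in TKO_96h, against 14.4, 26.8 and 33 CPM in WT_40h. For Adar-202 TKO_40h and TKO_48h overlapped WT_40h, and each TKO_96h library was below each WT_40h library. For Adar-201 all 3 TKO groups overlapped WT_40h. The split between transcripts is the quantifier's estimate and was not tested.

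Oas1g, which shares most of its sequence with Oas1a, was at 0.344, 0.802 and 1.56 CPM in TKO_48h and 1.81, 2.1 and 4.22 CPM in TKO_96h, so that the estimated mean levels of both genes were highest in TKO_40h.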
